A study of Mus musculus with 12 samples.

Results

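Neuronal pentraxins are a family of 3 genes in mice: Nptx1 and Nptx2, whose products are secreted, and Nptxr, the neuronal pentraxin receptor, whose product is anchored in the membrane. Each was found as 1 row of the deposited table of 23382 rows, so 3 of 3 members were measured, and all 3 were among the 15802 genes that passed the filter on low counts. The members were chosen by gene symbol as a family. The choice was made with earlier results of these same 12 libraries known and is recorded as drawing on measured values without saying which, so the levels and group differences of the 3 genes are given as a description and support nothing by themselves.

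Neuronal pentraxins assemble through their amino-terminal parts into mixed complexes, and the carboxy-terminal pentraxin domain binds the extracellular part of AMPA receptors, the ion channels that carry fast excitatory transmission. They gather these receptors at excitatory synapses, including those on parvalbumin interneurons. Nptx2, also called Narp, is an activity-induced gene, Nptxr can be shed from the membrane by the protease ADAM17, and glypican 4, which astrocytes secrete, triggers release of Nptx1 from axons.

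The libraries hold hippocampal total RNA from mice on a C57BL/6 background, depleted of ribosomal RNA. Control vehicle, control THC, mutant vehicle and mutant THC had 3 libraries each. The mutant mice are named aDN-DISC1 or DISC1 mutant in the labels, and the series title places the vulnerability in astrocytes and the exposure to THC in adolescence. THC (tetrahydrocannabinol) is the intoxicating cannabinoid of the cannabis plant. DISC1 is a scaffold protein. The control libraries carry no genotype entry and were placed by title, and the promoter that drives the mutant protein, the THC dose, the age at collection and the sex are not given in the sources used here. Nothing in the labels ties a library to a litter or says that each came from its own mouse, so the errors below measure the spread between these libraries, which may be technical.

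Total expected counts, the read numbers estimated per gene by the authors' software, were 33165903 to 41389957 per library. Levels are in CPM, counts scaled to a library of 1000000. Neurons were present by their markers: the 10 pan-neuronal genes listed for the check, such as the synaptic vesicle gene Snap25, summed to 5254 to 6371 CPM. Tissue next to the hippocampus differed between libraries. The 12 choroid plexus genes listed for the check summed to 64.9 to 137 CPM in control vehicle, 97.3, 5756 and 110 CPM in control THC 1 to 3, 3987 to 11080 CPM in mutant vehicle and 6887, 91.1 and 3234 CPM in mutant THC 1 to 3. The 10 striatal genes summed to 4598 CPM in mutant THC 3 and 580 CPM in mutant vehicle 3 and to 170 to 200 CPM in the other 10 libraries. The 10 genes listed for meninges and vessel walls summed to 120 to 140 CPM in control vehicle and 196 to 200.5 CPM in control THC. They summed to 236 to 314 CPM in mutant vehicle and to 247, 126 and 118.5 CPM in mutant THC 1 to 3. The 5 blood genes summed to 322.5 to 455 CPM in control vehicle and 394.5 to 602 CPM in control THC. In mutant vehicle they summed to 469 to 829 CPM and in mutant THC to 538 to 689 CPM. The THC libraries carry the numbers 1 to 5 and 12 in the labels and the vehicle libraries 6 to 11. Treatment and any order behind these numbers can therefore hardly be told apart. The labels do not say whether the number is an order of processing.

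The 3 genes lie on different chromosomes and share their design of 5 exons. Nptx1 lies on chromosome 11 from 119538719 to 119547820 on the minus strand, Nptx2 on chromosome 5 from 144545887 to 144557478 on the plus strand, and Nptxr on chromosome 15 from 79786351 to 79804709 on the minus strand (RefSeq, GRCm38.p6). Their coding sequences are 1296, 1287 and 1479 bases long without the stop codon, the longest being that of Nptxr. Over aligned coding bases, Nptx1 and Nptx2 were identical at 67.2%, Nptx1 and Nptxr at 64.5% and Nptx2 and Nptxr at 65.2%. The stretch that names the family is the pentraxin signature in exon 4 of each gene. It is shown because it is the most recognisable sign that the 3 rows are relatives and still differ enough for reads to be told apart. The 24 bases in capitals code for the signature, each printed 5′ to 3′ on the coding strand from the GENCODE M21 transcripts (GRCm38).
Nptx1, chr11:119543278-119543337, minus strand: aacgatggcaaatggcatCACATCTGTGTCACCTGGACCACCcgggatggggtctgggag
Nptx2, chr5:144555321-144555380, plus strand: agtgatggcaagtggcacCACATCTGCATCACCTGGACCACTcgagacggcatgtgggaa
Nptxr, chr15:79790362-79790421, minus strand: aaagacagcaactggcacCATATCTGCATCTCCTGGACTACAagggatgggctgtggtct
Within the capitals Nptx1 and Nptx2 share 21 of 24 bases, Nptx2 and Nptxr 20, and Nptx1 and Nptxr 18.

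Nptxr shares its locus with a read-through gene, and this bears on every Nptxr value. Npcd, annotated as Cbx6-Nptxr in RefSeq, starts at the neighbouring Polycomb gene Cbx6 and splices into the second exon of Nptxr on the same strand, from 79786351 to 79834333 of chromosome 15. Npcd has a row of its own in the deposited table. In GENCODE M21 the shorter Npcd transcript has 1162 exonic bases, of which 890 lie in Nptxr exons and 272 in Cbx6 exons, so no exonic base is its own. From the side of Nptxr, these 890 bases are 17.8% of its 5006 exonic bases in that annotation, and the rest lies outside the overlap. In RefSeq both genes end at the same base, and the exons of the RefSeq transcripts that the authors counted were not used here. In GENCODE M21 the genes enter the shared exon by different junctions. The Npcd junction shown is that of the shorter transcript, and the longer one joins from a different exon. The lines below show the 30 bases before each junction in small letters. The first 30 bases of the shared exon, chr15:79794446-79794475 on the minus strand, are in capitals.
Nptxr, from its own exon 1: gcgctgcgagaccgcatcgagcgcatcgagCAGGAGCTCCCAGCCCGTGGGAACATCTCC
Npcd, from Cbx6 exons: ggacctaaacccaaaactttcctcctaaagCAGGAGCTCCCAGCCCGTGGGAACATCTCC
A read that lies inside the shared exons fits both rows, and the counting software divides such reads by estimate. The Nptxr row is therefore uncertain by itself, and the sum of both rows, chosen after seeing the data, is given beside it.

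Per kilobase of spliced transcript, the order of the levels was Nptx1, then Nptxr, then Nptx2 in 12 of 12 libraries. Nptx1 was at 37.7 to 92.1 CPM per kb, Nptxr at 20.9 to 48.4 and Nptx2 at 7.35 to 14.5. The ranges of Nptx1 and Nptxr over all libraries overlap although the order within each library did not change, and those of Nptxr and Nptx2 do not overlap. On the CPM scale Nptx1 lay above 97.1% of the tested genes, Nptxr above 92.4% and Nptx2 above 56.6%. All 3 varied more between libraries of 1 group than most genes did. The within-group SD of log2 CPM was 0.28 for Nptx1, 0.26 for Nptx2 and 0.19 for Nptxr, where the median over 11735 genes at 5 CPM or more was 0.11.

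Nptx1, the most abundant member, was at 314, 367 and 340 CPM in control vehicle 1 to 3 and at 373, 393 and 480 CPM in control THC 1 to 3. In mutant vehicle 1 to 3 it was at 347, 289 and 286 CPM, and in mutant THC 1 to 3 at 251, 380 and 197 CPM. All control THC libraries lay above all control vehicle libraries, while mutant vehicle overlapped control vehicle. Mutant THC held both the 2 lowest libraries of the study, 1 and 3, and a library, 2, that lay inside the control THC range. The group means were 340 ± 26.6, 415 ± 57.3, 307 ± 34.5 and 276 ± 94.1 CPM (SD, n = 3).

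Nptx2, the activity-induced member, overlapped in each of the 4 pairwise comparisons of the design. It was at 24.5, 33.0 and 28.1 CPM in control vehicle, 28.1, 29.3 and 35.3 in control THC, 26.1, 27.2 and 18.6 in mutant vehicle and 23.4, 36.8 and 27.2 in mutant THC, libraries 1 to 3 in each. Control THC lay wholly above mutant vehicle, a pair outside those 4 that differs in both genotype and treatment. The share of all genes that did so was not computed. The lowest library was mutant vehicle 3 and the highest mutant THC 2, and the means were 28.5 ± 4.25, 30.9 ± 3.88, 24.0 ± 4.65 and 29.1 ± 6.90 CPM (SD, n = 3).

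Nptxr, the membrane-anchored member, had a wider gap between its highest and lowest group mean, relative to its level, than the other two. It was at 198, 206 and 204 CPM in control vehicle and 227, 240 and 217 CPM in control THC, libraries 1 to 3. Mutant vehicle 1 to 3 had 209, 178 and 135 CPM, and mutant THC 1 to 3 had 110, 134 and 104 CPM. The 3 mutant THC libraries were the lowest of the study, although mutant vehicle 3 lay just above mutant THC 2. Mutant vehicle 1 lay above all control vehicle libraries, and the control THC libraries were the 3 highest. Means were 203 ± 4.11, 228 ± 11.2, 174 ± 36.8 and 116 ± 15.8 CPM (SD, n = 3).

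**Figure D1:**
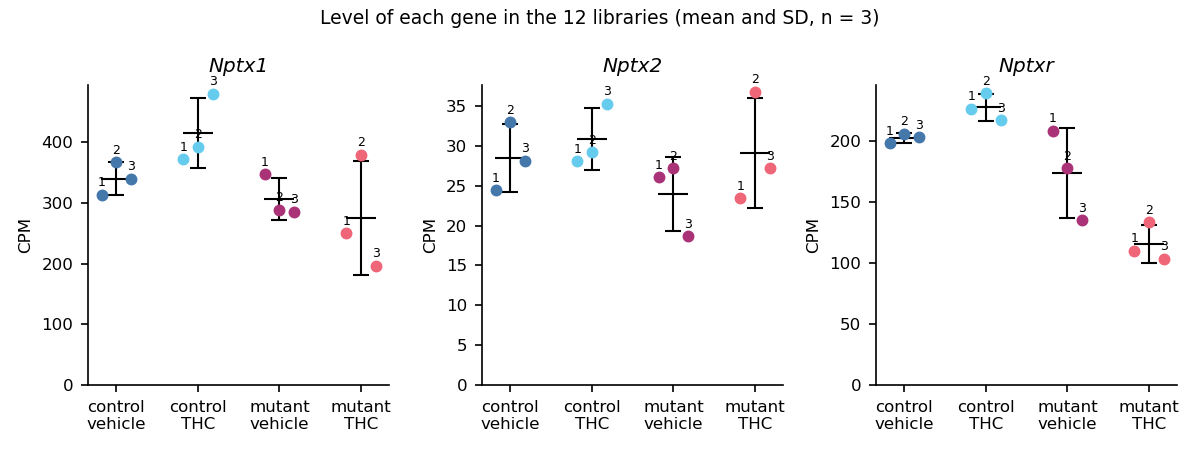
CPM of Nptx1, Nptx2 and Nptxr by group. Points are libraries with their replicate number, and bars are the mean and SD (n = 3). Nptxr is between 104 and 134 CPM in mutant THC and between 217 and 240 CPM in control THC, while Nptx2 overlaps in the 4 pairwise comparisons of the design.

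The Npcd row holds the reads assigned to the read-through gene. Npcd was at 168, 167 and 238 CPM in control vehicle, 196, 170 and 201.3 in control THC, 126, 146 and 160 in mutant vehicle and 172, 218 and 108 in mutant THC. Nptxr made up 45.9% to 62.3% of the sum of both rows in the 9 libraries outside mutant THC, and 39%, 38% and 48.9% in mutant THC 1 to 3. The sum was at 366, 373 and 442 CPM in control vehicle, 423, 409 and 418 CPM in control THC, 335, 323 and 295 CPM in mutant vehicle and 282, 351 and 212 CPM in mutant THC. All 6 mutant libraries were thus below all 6 control libraries in the sum, which was so for 0.753% of the tested genes. The group means of the sum were 394 ± 41.6, 417 ± 7.01, 318 ± 20.6 and 282 ± 69.7 CPM (SD, n = 3). Control vehicle and control THC overlapped in the sum, and so did mutant vehicle and mutant THC.

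**Figure D2:**
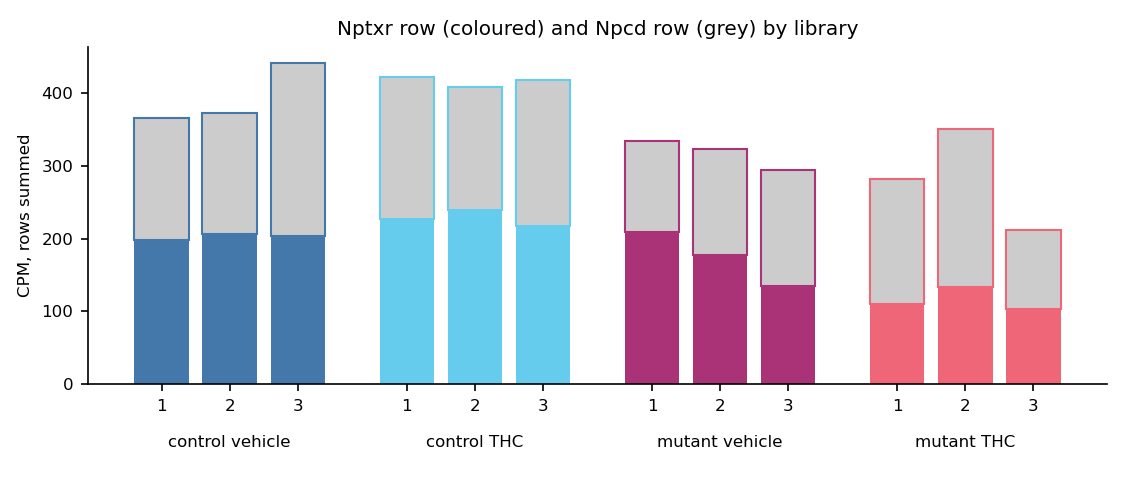
CPM of the Nptxr row (coloured) and the Npcd row (grey) stacked for each library, with replicate numbers below. The stacks of the 6 mutant libraries reach 212 to 351 CPM and those of the 6 control libraries 366 to 442 CPM.

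None of the 3 members was past the threshold of the quasi-likelihood test of edgeR (adjusted p under 0.05 over 15802 genes) in any of the 7 comparisons. The share of all genes called was 0% for THC in control mice, for THC in mutant mice, for the interaction and for THC averaged over genotypes, and 0.00633% (1 gene) each for the mutation under vehicle, under THC and averaged over treatments. At an unadjusted p under 0.05 there were 1106 genes for THC in control mice, 906 for THC in mutant mice, 1040 for the interaction and 959 for THC averaged over genotypes. For the mutation there were 2814 such genes under vehicle, 1420 under THC and 3347 averaged over treatments. DESeq2 called Nptxr for the mutation under THC and for the mutation averaged over treatments, beside 7 and 763 genes in all, and limma-voom called no member. Since these contrasts may have led to the choice of the family, nothing is read from either outcome.

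THC in control mice went with higher Nptx1 and Nptxr and overlapping Nptx2. The log2 fold change was 0.29 ± 0.20 (SE) for Nptx1, 0.17 ± 0.14 for Nptxr and 0.11 ± 0.19 for Nptx2. For 2 of 3 members control THC lay wholly above control vehicle, and this held for 8.30% of all genes. Granule cell markers of the dentate gyrus went the same way: 8 of 8 were above 0 with a median of 0.35, where the median over all genes was 0, and 2 of them did not overlap. The granule cell score, the mean log2 CPM of that list, was highest in control THC 3 at 6.82, the library with the highest Nptx1. Its part in the difference was not tested. Without control THC 3 the Nptx1 difference was 0.17. The Nptxr difference was 0.08 ± 0.15 when the Npcd row was added.

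THC in mutant mice went with lower Nptxr and with Nptx1 and Nptx2 values that overlapped. Nptxr differed by -0.59 ± 0.14, Nptx1 by -0.16 ± 0.20 and Nptx2 by 0.28 ± 0.19 (log2, SE). Nptxr was the 1 of 3 members for which mutant THC lay wholly below mutant vehicle, as did 4.40% of all genes. Summed with Npcd the difference was -0.17 ± 0.15 and the groups overlapped. Of that sum, Nptxr was assigned 62.3%, 55% and 45.9% in the mutant vehicle libraries against the 39%, 38% and 48.9% of mutant THC, so the shares overlapped too. The Nptx1 difference was -0.46 without mutant THC 2 and 0.04 without mutant THC 3. The direction of THC in Nptxr was thus opposite in the 2 genotypes without overlap in either. Of all genes 0.519% were likewise higher in control mice and lower in mutant mice, and the reverse orientation is not in that share. Markers of meninges and vessel walls went the same way. With THC 10 of 10 were above 0 in control mice (median 0.60, 4 wholly higher, against 8.30% of all genes). In mutant mice 10 of 10 were below 0 (median -0.69, 2 wholly lower, against 4.40%). Their part in the Nptxr values was not tested.

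The mutation under vehicle went with lower means of all 3 members and overlapping libraries. The log2 fold changes were -0.15 ± 0.20 for Nptx1, -0.25 ± 0.19 for Nptx2 and -0.22 ± 0.14 for Nptxr (SE). None of the 3 separated the groups, where 12.7% of all genes were wholly lower in mutant vehicle. The Npcd row did separate them (-0.41 ± 0.22), and the sum of both rows differed by -0.31 ± 0.15. The Nptxr value was -0.37 to -0.07 over the omission of each library. Pan-neuronal markers were lower as well, 10 of 10 below 0 with a median of -0.17, and 5 of 10 were wholly lower. Oligodendrocyte markers were higher, 8 of 8 above 0 with a median of 0.33, and 7 of 8 were wholly higher, against 15.3% of all genes. All 12 choroid plexus markers were wholly higher. The part of the neuronal and oligodendrocyte markers in the members' values was not tested. With the choroid plexus score as a covariate Nptx1 was at 0.30 ± 0.23, Nptx2 at 0.15 ± 0.23 and Nptxr at -0.05 ± 0.19. Choroid plexus markers were high in every mutant vehicle library and in no control vehicle library, so the mutation and this tissue signal cannot be told apart under vehicle. In bulk tissue, fewer cells of a type and less RNA per cell cannot be told apart either.

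The mutation under THC went with Nptxr at about 0.508 times its control level, the widest difference of the family. The log2 fold change was -0.98 ± 0.14 for Nptxr, -0.59 ± 0.20 for Nptx1 and -0.08 ± 0.19 for Nptx2 (SE). Mutant THC lay wholly below control THC for 1 of 3 members, Nptxr, and for 5.70% of all genes. Nptxr was at 134 CPM in mutant THC 2, below all 6 control libraries. That library had 91.1 CPM of choroid plexus genes, inside the control vehicle range, and 188 CPM of striatal genes, inside the range of the 10 libraries without a high value. Its Npcd row was the highest of the mutant libraries at 217.5 CPM, and Nptxr made up 38% of the sum of both rows. That sum was 351 CPM, against 366 to 441.5 CPM in the control libraries. Nptx1 in mutant THC 2 was at 380 CPM, inside the control THC range. Without mutant THC 3, the library with striatal genes, Nptx1 differed by -0.40 and without mutant THC 2 by -0.89, while Nptxr stayed between -1.09 and -0.90 over the omission of each of the 12 libraries. Added to Npcd, the difference was -0.56 ± 0.15. Granule cell markers were lower with a median of -0.48 (6 of 8 below 0), where the median over all genes was 0.005. Oligodendrocyte markers were higher with a median of 0.49 (8 of 8 above 0, with overlapping libraries). The part of either list in the lower Nptx1 was not tested. The cause of the lower Nptxr, tissue next to the hippocampus included, was not tested either.

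The difference between the THC effects of the 2 genotypes was -0.75 ± 0.19 for Nptxr, -0.44 ± 0.28 for Nptx1 and 0.17 ± 0.27 for Nptx2 (log2, SE). For the sum of Nptxr and Npcd it was -0.26 ± 0.21. Averaged over treatments, the mutation went with -0.60 ± 0.10 for Nptxr, -0.37 ± 0.14 for Nptx1, -0.17 ± 0.13 for Nptx2 and -0.44 ± 0.10 for the sum. Averaged over genotypes, THC went with -0.21 ± 0.10, 0.07 ± 0.14 and 0.20 ± 0.13 for Nptxr, Nptx1 and Nptx2.

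**Figure D3:**
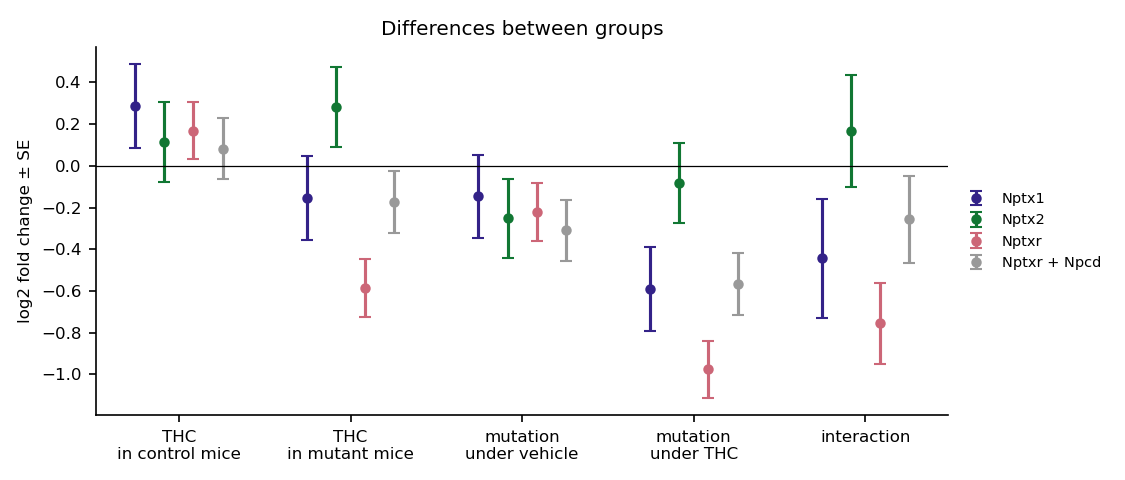
Log2 fold change of each member, and of Nptxr with the Npcd row added (grey), in the 4 pairwise comparisons and their interaction. Bars are the SE. Nptxr is at -0.98 for the mutation under THC and its summed value at -0.56, while Nptx2 runs from -0.25 to 0.28.

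AMPA receptor subunits are the binding partners of the family. None of the 4 subunit genes, 19 auxiliary subunit genes and 18 scaffold and trafficking genes tested was past the threshold in any comparison (smallest adjusted p = 0.16, edgeR). Gria1 was at 1367 ± 93.5, 1412 ± 74.7, 1239 ± 133 and 1214 ± 308 CPM in control vehicle, control THC, mutant vehicle and mutant THC (SD, n = 3). Gria2, whose product makes the receptor impermeable to calcium, was at 1327 ± 68.6, 1361 ± 42.5, 1235 ± 30.2 and 1282 ± 147 CPM. Gria3 was at 236 ± 9.05, 220 ± 16.9, 213 ± 7.68 and 230 ± 15.8 CPM. Gria4, the subunit gene prominent in interneurons, was at 92.3 ± 7.74, 69.9 ± 9.35, 79.7 ± 1.07 and 83.4 ± 11.2 CPM, and control THC was wholly below control vehicle (-0.40 ± 0.11), as were 8.07% of all genes. The mutation under vehicle went with 4 of 4 subunit genes below 0 (median -0.15). Of these 2, Gria3 and Gria4, were wholly lower, as were 12.7% of all genes. Under THC the mutation difference was -0.22 ± 0.15 for Gria1, -0.09 ± 0.08 for Gria2, 0.06 ± 0.07 for Gria3 and 0.26 ± 0.11 for Gria4.

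Auxiliary subunits set the traffic and gating of AMPA receptors. For the mutation under vehicle 13 of 19 auxiliary subunit genes were below 0 with a median of -0.12, and 6 of 19 were wholly lower, against 12.7% of all genes. Under THC again 13 of 19 were below 0 with a median of -0.15. The most abundant, Olfm1, was at 815 ± 15.8, 960 ± 102, 750 ± 88.4 and 714 ± 215 CPM in the 4 groups. Frrs1l, needed for receptor biogenesis, was at 427 ± 23.2, 466 ± 20.2, 401 ± 38.3 and 423 ± 71.7 CPM. Of the scaffold and trafficking genes 17 of 18 were below 0 under vehicle (median -0.16, 6 of 18 wholly lower against 12.7% of all genes) and 9 of 18 under THC (median -0.01). Nsf, the ATPase that binds GluA2, differed by -0.20 ± 0.12 under vehicle. Of the pan-neuronal markers, 10 of 10 were below 0 for the mutation under vehicle (median -0.17, 5 of 10 wholly lower) and 6 of 10 under THC (median -0.125). The wholly lower share under vehicle was thus no smaller for general neuronal markers than for the auxiliary or scaffold lists. Their part in the values of these lists was not tested.

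**Figure D4:**
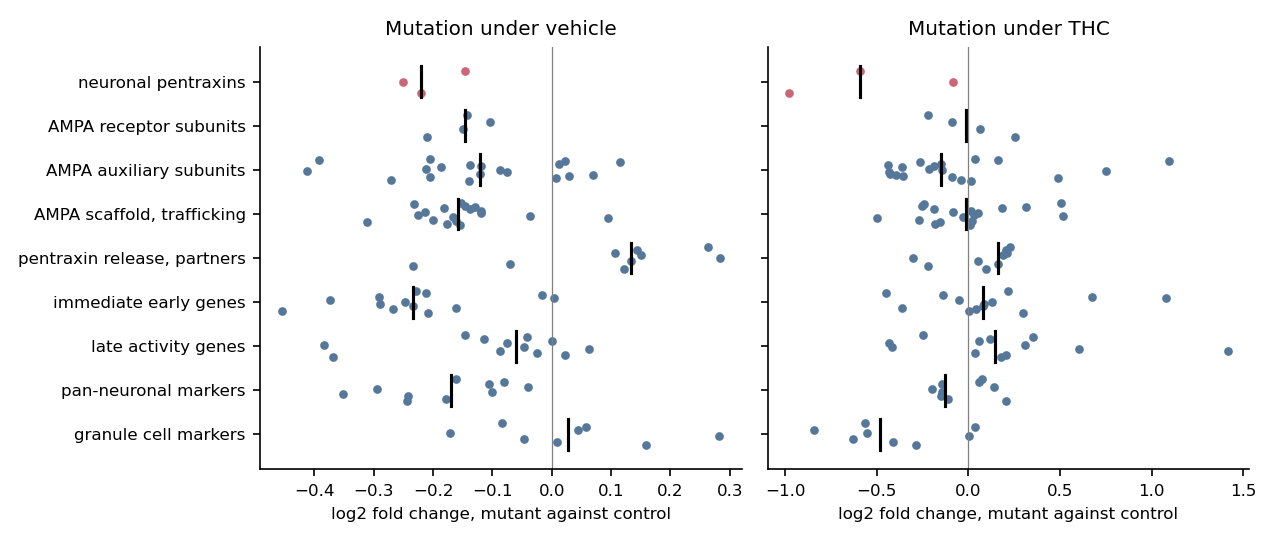
Log2 fold change of mutant against control libraries under vehicle (left) and under THC (right). Points are genes and black lines medians; the axes of both panels differ in range. Medians are -0.22 and -0.59 for the neuronal pentraxins and -0.15 and -0.01 for the AMPA receptor subunits.

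Genes for release and partners of the pentraxins had no member past the threshold among 9 (smallest adjusted p = 0.16, edgeR). Their median was 0.13 for the mutation under vehicle and 0.16 under THC, with 7 of 9 above 0 in each. Ptprs, a receptor phosphatase of the glypican pathway, was at 599 ± 10.5, 558 ± 14.8, 509 ± 51.9 and 479 ± 74.2 CPM in the 4 groups, and Ptprd, a relative, at 335 ± 13.9, 273 ± 27.6, 319 ± 14.1 and 306 ± 38.5 CPM. Of the other pentraxins 3 of 5 listed were abundant enough to test. Svep1, a matrix protein with a pentraxin domain, was at 2.64 ± 0.42, 3.68 ± 0.48, 4.55 ± 0.63 and 2.39 ± 0.70 CPM, and Ptx3, a long pentraxin of innate immunity, was at 0.72 to 0.84 CPM as group means. The 24 other synapse organisers had medians of -0.09 and -0.03 for the mutation under vehicle and THC. Sparcl1, an astrocyte protein that promotes excitatory synapses, was at 2076 ± 158, 1894 ± 102, 1954 ± 89.5 and 1873 ± 319 CPM.

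Nptx2 belongs by background to the genes induced by neuronal activity. None of 13 immediate early and 12 later genes was past the threshold (smallest adjusted p = 0.175, edgeR). For THC in control mice 10 of 13 immediate early genes were below 0, with a median of -0.22, and 4 of 13 were wholly lower, against 8.07% of all genes. For the mutation under vehicle 12 of 13 were below 0, with a median of -0.23, and 2 of 13 were wholly lower, against 12.7% of all genes. The other direction was seen for the mutation under THC (9 of 13 above 0, median 0.08) and for THC in mutant mice (9 of 13, median 0.09). For the interaction 10 of 13 were above 0, with a median of 0.37. The immediate early score was 3.85 and 3.88 in mutant THC 1 and 2. These lay inside the ranges of mutant vehicle (3.66 to 4.08) and control THC (3.78 to 4.01). It was 4.22 in mutant THC 3, the library with 4598 CPM of striatal genes. Arc, which drives removal of AMPA receptors from synapses, was at 185 ± 1.94, 148 ± 18.7, 158 ± 32.7 and 172 ± 5.01 CPM in the 4 groups. Junb, an AP-1 gene, was at 82.3 ± 7.15, 68.8 ± 4.89, 68.3 ± 10.4 and 70.9 ± 7.63 CPM. Among later genes Scg2, a secretory granule gene, was at 287 ± 13.9, 297 ± 18.5, 282 ± 22.7 and 304 ± 23.5 CPM. Over the 12 libraries the correlation of Nptx2 with the immediate early score was 0.18 and with the score of later genes 0.26. Parvalbumin interneuron and perineuronal net genes, 11 in all, had a median of -0.10 for the mutation under vehicle and 0.08 under THC, and none passed.

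Pearson's r of log2 CPM over the 12 libraries was 0.78 for Nptx1 and Nptxr, 0.59 for Nptx1 and Nptx2 and 0.32 for Nptx2 and Nptxr. With the group means removed the same values were 0.60, 0.69 and 0.68. Nptxr and Npcd, which share reads, had an r of 0.34, and 0.12 with group means removed. These correlations are descriptions over libraries that share depth, dissection and, within a group, treatment.

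Each member had its own nearest genes among 11732 genes at 5 CPM or more. Most of the most alike genes named below left the nearest 5 by Spearman correlation, with group means removed or without mutant THC 3. Nptx1 was most like Neurod2, a transcription factor of excitatory forebrain neurons (r = 0.99 over 12 libraries, 0.98 with group means removed). Tanc1, a postsynaptic scaffold gene (0.98), Stard7, a lipid transfer gene (0.97), the AP-1 gene Jun (0.97) and Rasl10a (0.97) followed. Neurod2 was at 190 CPM in control THC 3 and 63.9 CPM in mutant THC 3, the libraries with the highest and the lowest Nptx1. Its most opposed genes were Ldhb, a lactate dehydrogenase gene (-0.96), Hhip, a hedgehog-binding protein gene (-0.96), and Aktip (-0.96). The granule cell score had an r of 0.88 with Nptx1, the oligodendrocyte score -0.85 and the pan-neuronal score 0.365. The oligodendrocyte genes summed to 7486 CPM in mutant THC 3 and to 3554 CPM in control THC 3.

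Nptx2 was most like Rcc2, a regulator of chromosome condensation (r = 0.96), Zfp46 (0.94), a noncoding Kctd16 row (0.94), Hic2 (0.93) and Gmeb1 (0.93). Its most opposed genes were Dnajc10, a chaperone of the endoplasmic reticulum (-0.96), Rcn2 (-0.96) and Cyp2j6 (-0.95). Rcn2 encodes a calcium-binding protein of the endoplasmic reticulum that, like the neuronal pentraxins, binds the snake toxin taipoxin, and it was also on the list of partners. Rcn2 was at 125 CPM in mutant vehicle 3, where Nptx2 was lowest, and at 97.2 CPM in mutant THC 2, where Nptx2 was highest. The score of AMPA auxiliary subunits had an r of 0.90 with Nptx2.

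For Nptxr the most alike genes were Slc27a3, a fatty acid transporter gene (0.93), Slc25a29, a mitochondrial carrier gene (0.92), the DNA repair gene Xrcc1 (0.91), Kcnk12, a potassium channel gene (0.90), and Mrpl38 (0.90). With group means removed these values were 0.65 to 0.77. Crem, a cAMP-responsive regulator gene (-0.91), Spcs1 (-0.89) and Vmp1 (-0.89) were most opposed.

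**Figure D5:**
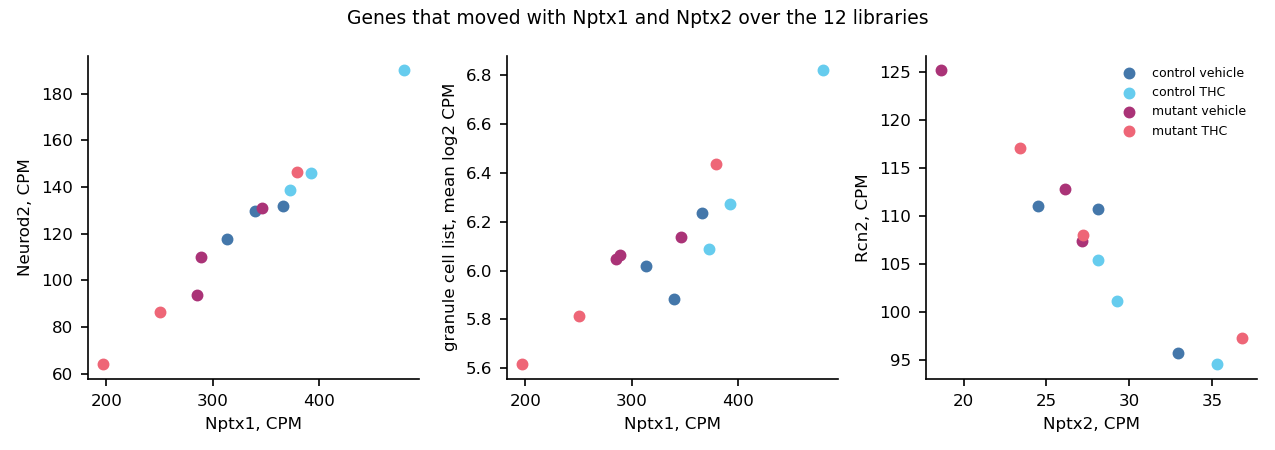
Nptx1 against Neurod2 and against the granule cell score, and Nptx2 against Rcn2, in CPM except the score (mean log2 CPM). Points are the 12 libraries coloured by group. Neurod2 runs from 63.9 to 190 CPM as Nptx1 runs from 197 to 480 CPM, and Rcn2 runs from 125 down to 94.5 CPM as Nptx2 increases.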

How the data were processed

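Expected counts, estimated by the authors with RSEM on RefSeq transcripts per the file headers, were deposited in 1 table. The submitters' processing notes list mm10 and these tools: RSEM 1.2.21, Bowtie2 2.2.2, CASAVA 1.8.4, edgeR 3.10.2 and FastQC. Whether reads were counted by strand is unknown here. All 12 columns matched samples.

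Rows took symbols from RefSeq (GRCm38.p6; 23018 rows) or GENCODE metadata (129). Expected counts were rounded, filtered with filterByExpr (15802 genes) and scaled by TMM (factors 0.99 to 1.01). One edgeR 4.0.16 quasi-likelihood fit (R 4.3.3, 8 residual degrees of freedom) held all 12 libraries, and p-values were adjusted over all genes by Benjamini-Hochberg with a threshold of 0.05. SE were taken from the F statistic. DESeq2 1.42.0 and limma-voom (limma 3.58.1) were alternatives. The code was tested on simulated data. The lowest chi-square per gene over 66 pairs of libraries was 11.2, so no library repeated another. Scores are means of log2 CPM with a prior count of 2.

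The members and gene lists were chosen with earlier results of these data known. Besides the members, the rule names Gria1 to Gria4, up to 3 of the most abundant genes of a list, list members past the threshold, tissue markers, and the 5 most alike and 3 most opposed genes of each member (Pearson, mean CPM of 5 or more).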

Additional observations from a re-analysis of the deposited data

Results flagged for a closer look

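THC went with higher Nptxr in all 3 control libraries and lower Nptxr in all 3 mutant libraries than in any vehicle library of the same genotype. The difference between both effects was -0.755 (log2), it was not past the threshold of the edgeR test over all genes, and it was -0.256 when the Npcd row was added. Its cause was not tested.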

How the results depend on the processing

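The log2 fold changes of the 3 members moved by less than the within-group SD of log2 CPM in 442 of 453 recomputations. Many of these could hardly move the value. They include fits without a library from outside the groups compared, and Nptx1 and Nptx2 with the Npcd row added. The count is therefore not a measure of robustness. With the choroid plexus score as a covariate, Nptx1 was at 0.45 and Nptxr at 0.23 for THC in control mice, Nptx1 at 0.30 and Nptx2 at 0.15 for the mutation under vehicle, and Nptx1 at -0.80 and Nptx2 at -0.15 for the interaction. With the Npcd row added, a choice made after seeing the data, Nptxr was at 0.082 and -0.173 for THC in control and mutant mice, -0.56 for the mutation under THC and -0.26 for the interaction. The Nptx1 interaction was -0.75 to -0.25 over the omission of each library, the first without mutant THC 2. Calls were 11 for THC in control mice, 3 for THC in mutant mice, 781 and 7 for the mutation under vehicle and THC, 34 for the interaction, and 3 and 763 for averaged THC and mutation effects with DESeq2. For the mutation under vehicle and under THC limma-voom gave 0 and 0, the groups compared alone 523 and 0, and mutant THC 3 and mutant vehicle 3 left out together 0 and 0, and the choroid covariate gave 0 under vehicle. Omitting 1 library gave 0 to 6 calls for the mutation under vehicle, 0 to 2 under THC, 0 to 3 for THC in mutant mice, 0 to 10 for the interaction and 1 to 942 for the averaged mutation effect. That 942 came without mutant THC 2, and Nptx1 and Nptxr were then among the calls. Nptxr was also called for the mutation under THC without mutant vehicle 1 or mutant vehicle 3. The cause of these changes was not tested. Of the 5 nearest genes, 0 to 2 of each member recurred among the nearest 5 by Spearman correlation, with group means removed or without mutant THC 3. No paired analysis was possible because the labels give no replicate number that recurs between groups. With 3 libraries a group, the SE of about 0.14 to 0.20 limits what could be seen.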
